A study of Rattus norvegicus with 44 samples.

Results

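The livers described here came from rats that received compound R1 at 30 mg/kg/day for 24 h and from vehicle-treated rats of the same study. They were chosen by their labels, as the arrays of study 1 titled R1 with dose 30 and those titled vehicle control with dose 0 at 24 h, and make up 6 of the 44 arrays of the series, 3 in each group. R1 is named by its code only, and the whole series compared it and a second compound, R2, with vehicle in rat liver. The groups set beside these were R1 at 10 mg/kg/day (4 arrays) and at 100 mg/kg/day (3 arrays) of study 1 at 24 h, R1 at 30 mg/kg/day (4 arrays) with its own vehicle (5 arrays) of study 3 at 336 h, and 4 vehicle arrays of study 4 at 24 h. All rats were male Wistar rats, 8 weeks old, and all were gavaged once a day with a compound or with citric acid buffer, the vehicle. They were killed with CO2 24 h after the last dose, and RNA came from a slice of the left lateral liver lobe. The labels give each array a replicate number and do not say that each is a separate animal. The p-values thus cover only the variation among these arrays, some of which may be technical.

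Each array gave a MAS5 signal, the Affymetrix summary of a probe set's brightness, for 8740 probe sets after controls were left out. Fold changes below are log2 differences ± SE from limma on log2(signal + 2.9), which understates the change of dim genes, and the threshold for a call was a Benjamini-Hochberg adjusted p under 0.05. Of 6361 probe sets bright enough to be tested, 110 were called, which is 1.73% (1.33% of genes). Higher in R1 30 livers were 94 (1.48%) and lower were 16 (0.252%). One probe set, the brightest over all arrays, stood for each gene, and of 3693 genes 42 rose (1.14%) and 7 fell (0.19%). Arrays correlated between 0.947 and 0.959 within R1 30 and between 0.962 and 0.964 within vehicle, and an R1 30 array correlated with a vehicle array between 0.943 and 0.962. No marker of hepatocytes, Kupffer cells, stellate cells, endothelium, bile duct or blood cells was called. The summed signal of 8 hepatocyte markers was 53966 to 56986 in R1 30 livers and 56827 to 57704 in vehicle livers. The summed signal of 4 erythroid markers, mostly hemoglobin beta, was 5648 to 7539 in R1 30 livers and 4558 to 4855 in vehicle livers, without overlap, and its part in the results was not tested.

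The liver makes cholesterol from acetyl-CoA, first through mevalonate and farnesyl diphosphate to squalene and then through lanosterol. When sterols in the membrane of the endoplasmic reticulum run low, sterol regulatory element-binding proteins move to the nucleus and raise transcription of these enzymes, often together with the CCAAT-binding factor NF-Y. The liver also oxidises, conjugates and exports foreign compounds with enzymes and transporters that the nuclear receptors CAR and PXR can induce.

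Enzymes of cholesterol synthesis made up the largest rises. All 6 mevalonate pathway enzymes tested rose, with a median of 2.28, and 7 of 8 enzymes from squalene to cholesterol rose, with a median of 2.24. Over all genes tested 1.14% rose and the median was -0.03. These 13 calls held with each of the 6 arrays left out in turn.

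The promoters of some of these enzymes are shown because the genes rose together. RefSeq promoters (build GRCr8, 250 bases before to 50 after the start site) were found for 11 of the 13 enzymes that rose, and 3 motifs were searched on both strands. The NF-Y box, CCAAT, or ATTGG on the other strand, was in 8 of the 11 (72.7%) and in 37.7% of all 27457 promoters of the table. The sterol response element TCACNCCAC was in 0 of the 11 and in 1.13% of all promoters, and the antioxidant response element TGACNNNGC was in 3 of the 11 (27.3%) and in 12.2%. These are matches of letters, and the absence of one says only that these letters are not in this window. Of the 6 with the largest rises whose promoter was given, Acat2 and Cyp51 held no CCAAT box. The other 4 follow 5′ to 3′, with CCAAT or ATTGG in capitals.
Idi1, chr17:66547475-66547774, minus strand: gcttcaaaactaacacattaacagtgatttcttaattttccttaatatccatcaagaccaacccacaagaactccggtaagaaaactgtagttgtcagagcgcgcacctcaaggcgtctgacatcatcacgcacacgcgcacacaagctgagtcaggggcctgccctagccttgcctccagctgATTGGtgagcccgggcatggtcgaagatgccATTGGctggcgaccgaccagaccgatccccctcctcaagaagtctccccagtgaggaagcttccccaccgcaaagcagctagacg
Lss, chr20:12118181-12118480, minus strand: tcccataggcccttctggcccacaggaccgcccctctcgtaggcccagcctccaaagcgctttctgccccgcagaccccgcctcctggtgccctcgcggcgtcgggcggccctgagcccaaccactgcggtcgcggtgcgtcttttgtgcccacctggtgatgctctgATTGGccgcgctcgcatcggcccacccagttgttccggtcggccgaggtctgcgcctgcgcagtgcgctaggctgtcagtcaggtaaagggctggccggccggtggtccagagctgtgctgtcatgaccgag
Msmo1, chr16:29746863-29747162, plus strand: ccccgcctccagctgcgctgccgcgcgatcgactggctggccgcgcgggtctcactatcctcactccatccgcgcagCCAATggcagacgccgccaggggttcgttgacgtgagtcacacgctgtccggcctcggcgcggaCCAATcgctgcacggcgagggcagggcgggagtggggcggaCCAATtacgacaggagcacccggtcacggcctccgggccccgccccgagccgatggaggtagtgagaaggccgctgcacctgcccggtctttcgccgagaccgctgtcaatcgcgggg
Mvd, chr19:67414925-67415224, minus strand: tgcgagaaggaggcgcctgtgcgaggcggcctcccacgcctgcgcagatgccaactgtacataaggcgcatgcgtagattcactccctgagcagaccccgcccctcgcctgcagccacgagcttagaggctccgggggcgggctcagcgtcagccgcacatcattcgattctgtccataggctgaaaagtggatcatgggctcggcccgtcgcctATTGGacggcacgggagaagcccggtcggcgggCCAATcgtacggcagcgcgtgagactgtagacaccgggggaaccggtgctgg
With the base before the start site counted as -1, the boxes began at -66 and -35 in Idi1, at -82 in Lss, at -173, -109 and -68 in Msmo1, and at -35 and -2 in Mvd.

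The mevalonate pathway begins with acetyl-CoA units, and Acat2, an acetoacetyl-CoA thiolase, had signals of 1356, 1296 and 1480 in R1 30 livers, against 104, 82.9 and 53.3 in vehicle livers (log2 fold change 4.10 ± 0.40, adjusted p = 2.97e-10). Mvk, which phosphorylates mevalonate, had 203, 236 and 167 in R1 30 livers, against 58.4, 31.2 and 55.7 in vehicle livers (2.03 ± 0.26, adjusted p = 2.59e-07). Mvd, which decarboxylates mevalonate diphosphate to isopentenyl diphosphate, had 268, 80.8 and 158 in R1 30 livers, against 20.8, 19.4 and 33.2 in vehicle livers (2.53 ± 0.40, adjusted p = 2.85e-05). For all 3 genes the R1 30 arrays lay above the vehicle arrays, and Mvd varied most between R1 30 arrays, with array 2 the lowest. Idi1, which isomerises isopentenyl diphosphate and showed the largest rise of all genes tested, had 2505, 3115 and 2674 in R1 30 livers, against 112, 132 and 173 in vehicle livers (4.31 ± 0.37, adjusted p = 2.82e-11). Fdps, the synthase of farnesyl diphosphate, had 6196, 5010 and 5756 in R1 30 livers, against 1684, 1968 and 1592 in vehicle livers (1.69 ± 0.25, adjusted p = 8.35e-06). Fdft1, which joins farnesyl units into squalene, had 2468, 2164 and 1826 in R1 30 livers, against 626, 590 and 481 in vehicle livers (1.92 ± 0.23, adjusted p = 1.16e-07). No array of either group crossed into the other for any of these 6 enzymes, as was so for 107 of the 110 called probe sets. Every R1 30 array was above every vehicle array for 7.85% of all genes tested.

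Among the enzymes after squalene, Sqle, which forms its epoxide and limits the rate of this part of the pathway, rose most, with 1335, 1069 and 917 in R1 30 livers, against 93.9, 66.3 and 107 in vehicle livers (3.60 ± 0.36, adjusted p = 9.66e-10). Lss, which closes the rings to lanosterol, had 205, 183 and 187 in R1 30 livers, against 25.4, 27.5 and 28.4 in vehicle livers (2.69 ± 0.24, adjusted p = 3.86e-11). Its arrays spread little within either group. Cyp51, the lanosterol demethylase, had 2940, 2584 and 2303 in R1 30 livers, against 570, 522 and 507 in vehicle livers (2.28 ± 0.24, adjusted p = 2.50e-09). Msmo1, the sterol methyl oxidase, had 3138, 3098 and 2493 in R1 30 livers, against 482, 414 and 599 in vehicle livers (2.55 ± 0.25, adjusted p = 2.97e-10). Hsd17b7, a keto reductase, had 124, 205 and 134 in R1 30 livers, against 39.8, 24.6 and 29.3 in vehicle livers (2.19 ± 0.31, adjusted p = 2.32e-06). For all 3, each R1 30 array lay above every vehicle array, as was so for 7.85% of all genes tested.

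The remaining enzymes rose with a single exception. Ebp, a sterol isomerase, had 1427, 1659 and 1019 in R1 30 livers, against 342, 301 and 369 in vehicle livers (1.99 ± 0.26, adjusted p = 3.71e-07). Dhcr7, the final reductase of one branch, had 1611, 1191 and 1248 in R1 30 livers, against 537, 346 and 238 in vehicle livers (1.91 ± 0.38, adjusted p = 0.00103). Nsdhl, the dehydrogenase that works beside Msmo1, did not pass, with 601, 733 and 741 in R1 30 livers, against 414, 545 and 414 in vehicle livers (0.60 ± 0.25, adjusted p = 0.324). Its groups did not overlap either, and 7.85% of all genes tested had every R1 30 array above every vehicle array. Other probe sets of these genes mostly moved alike, but 1 of 5 for Cyp51 (0.26), 1 of 4 for Fdft1 (1.22) and 1 of 2 for Idi1 (1.17) were not called.

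**Figure D1:**
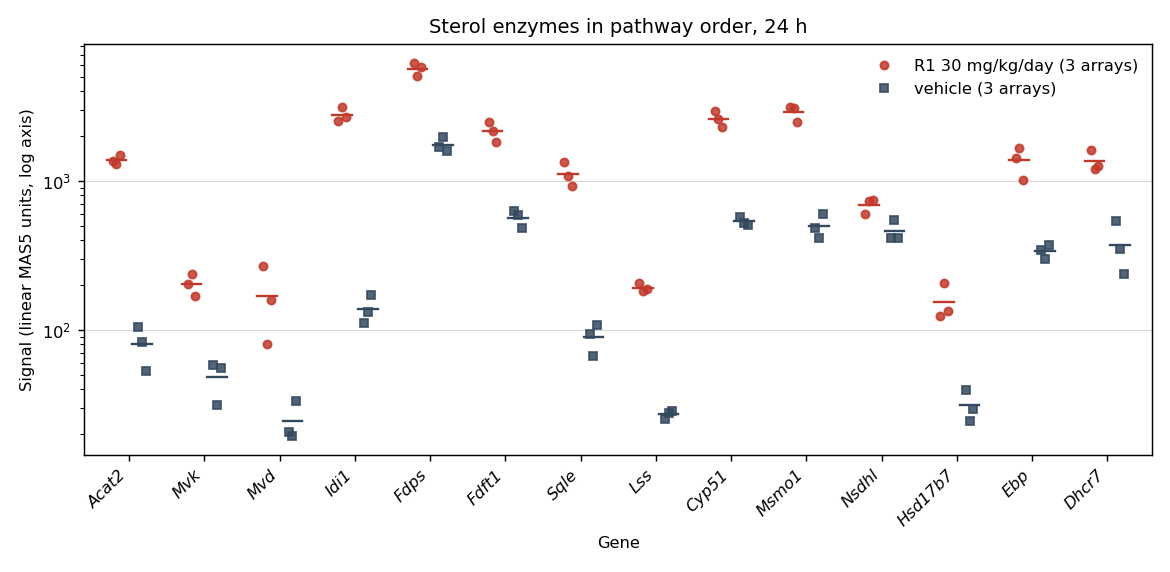
MAS5 signal (log axis) of 14 sterol enzymes in pathway order, with 1 point per array and a bar at the group mean, R1 30 in red and vehicle in blue. The 3 R1 30 arrays lie above the 3 vehicle arrays for every enzyme, most widely for Idi1, Acat2 and Sqle and least for Nsdhl.

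Averaged over the 6 mevalonate enzymes on the log2 scale and set against the vehicle mean, the R1 30 arrays stood at 2.94, 2.65 and 2.71, and the vehicle arrays at 0.06, -0.09 and 0.02. For the 8 later enzymes the R1 30 arrays stood at 2.30, 2.31 and 2.07, and the vehicle arrays at 0.12, -0.11 and -0.01. The 4 vehicle arrays of study 4 ranged between -0.11 and 0.16 and between -0.32 and 0.04. The 3 R1 30 arrays were close to each other and apart from both sets of vehicle arrays. Among genes that sense, take up or export sterols, 0 of 7 tested were called, with a median of -0.15 beside -0.03 over all genes. Insig1, which holds the sterol sensor in the endoplasmic reticulum, had 1213, 639 and 1069 in R1 30 livers, against 605, 570 and 594 in vehicle livers (0.67 ± 0.32, adjusted p = 0.444). Srebf1, a transcription factor of lipid synthesis, had 39.1, 60.03 and 55.1 in R1 30 livers, against 119, 127 and 83.8 in vehicle livers (-1.05 ± 0.40, adjusted p = 0.242). Neither gene's groups overlapped, as was so for 15.4% of all genes in one direction or the other, and neither passed the test. Of 12 fatty acid synthesis genes tested, Acsl3 alone rose, with 66.3, 139 and 90.6 in R1 30 livers, against 44.05, 31.3 and 36.3 in vehicle livers (1.29 ± 0.28, adjusted p = 0.00329). It encodes an acyl-CoA synthetase, and without R1 30 array 2 its adjusted p was 0.0836. The median of these 12 genes was 0.01, and 1.14% of all genes tested rose.

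Drug metabolism genes formed the other large group of rises. Of 22 genes known as targets of CAR and PXR, 10 rose and 0 fell, with all 22 above 0 and a median of 1.09. Of the 3693 genes tested, 1.14% rose, 0.19% fell and 1735 lay above 0. With 1 array left out at a time, between 6 (without vehicle array 1) and 9 of the 22 were called, which need not be the same genes. The list's mean, set against the vehicle mean, was 1.16, 1.13 and 0.99 in the R1 30 arrays, and -0.02, -0.03 and 0.05 in the vehicle arrays. Members of the Cyp3a, Cyp2b, Sult2a and Ugt2b families are alike in sequence, and their probe sets may share signal.

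Cyp3a23-3a1, a cytochrome P450 of broad substrate range, had 10598 in each R1 30 liver, against 2253, 2940 and 2397 in vehicle livers (2.08 ± 0.20, adjusted p = 2.38e-10). Its R1 30 signals are identical because all arrays hold the same set of values and the probe set took the same rank in each. It was the brightest of 4 probe sets of this gene, all of them called, and the other 3 rose more, by 2.63, 2.65 and 2.97. Cyp3a18, a related P450, had 1543, 1628 and 2001 in R1 30 livers, against 475, 701 and 600 in vehicle livers (1.55 ± 0.24, adjusted p = 1.37e-05). Por, the reductase that passes electrons to P450 enzymes, had 629, 552 and 508 in R1 30 livers, against 166, 79.9 and 151 in vehicle livers (2.13 ± 0.40, adjusted p = 5.36e-04). These 3 stayed called with any array left out. Cyp2b2, the classic phenobarbital-inducible P450 of rat liver, had 6408, 2397 and 2828 in R1 30 livers, against 1469, 1623 and 1244 in vehicle livers (1.29 ± 0.35, adjusted p = 0.0382). Its first R1 30 array stood far above the other two, and its call ended without R1 30 array 1 or without any 1 vehicle array (adjusted p up to 0.371). Alas1, the rate-limiting enzyme of heme synthesis, had 1045, 958 and 1183 in R1 30 livers, against 601, 451 and 351 in vehicle livers (1.21 ± 0.27, adjusted p = 0.00458). It was the 1 of 8 heme genes tested that rose, where 1.14% of all genes rose. Without vehicle array 3 the adjusted p of Alas1 was 0.0675.

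Aldh1a1, a retinal and aldehyde dehydrogenase, had 682, 1151 and 564 in R1 30 livers, against 239, 102 and 326 in vehicle livers (1.91 ± 0.36, adjusted p = 4.54e-04). Slco1a4, a sinusoidal carrier that takes up organic anions and drugs, had 2411, 2790 and 2397 in R1 30 livers, against 303, 519 and 519 in vehicle livers (2.54 ± 0.31, adjusted p = 1.57e-07). By the brightest probe set of each gene it was the largest rise outside sterol synthesis, although 3 dimmer probe sets of Cyp3a23-3a1 rose more, and its lowest R1 30 array was several times the highest vehicle array. Abcc2, the canalicular exporter of conjugates, had 521, 439 and 588 in R1 30 livers, against 162, 231 and 257 in vehicle livers (1.26 ± 0.29, adjusted p = 0.00634, and 0.117 without vehicle array 1). Ephx1, microsomal epoxide hydrolase, rose by 1.00 ± 0.26 (adjusted p = 0.0311), and Ugt2b1, a glucuronosyltransferase, by 1.37 ± 0.38 (adjusted p = 0.0468). Both calls ended when any 1 array other than vehicle array 3 was left out (adjusted p up to 0.217 for Ephx1 and 0.242 for Ugt2b1). The groups of these 5 genes did not overlap, as was so for 107 of the 110 called probe sets. Every R1 30 array was above every vehicle array for 7.85% of all genes tested.

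Conjugating enzymes moved in part. Of 22 in that list 2 rose, Ugt2b1 and the sulfotransferase Sult1b1, where 1.14% of all genes rose, and the median was -0.09. Sult1b1 had 1538, 1697 and 1569 in R1 30 livers, against 799, 639 and 868 in vehicle livers (1.07 ± 0.29, adjusted p = 0.0444), and its call ended without any 1 of the 6 arrays (adjusted p up to 0.242). The hydroxysteroid sulfotransferases Sult2a6 and Sult2a2, outside the list, rose by 1.86 ± 0.37 (adjusted p = 0.00102) and by 1.63 ± 0.38 (adjusted p = 0.00900, and 0.0556 without R1 30 array 2). Each had 2 of 3 probe sets called, and the lowest was at 1.44 for Sult2a6 and at 0.06 for Sult2a2. Sult2a6 had 1848, 3054 and 2552 in R1 30 livers, against 716, 596 and 703 in vehicle livers. None of 19 other P450 genes (median -0.23) and none of 5 targets of the aryl hydrocarbon receptor (median 0.18) was called, and Cyp1a1, the P450 that this receptor induces, was dim, with 2.67, 1.38 and 3.38 in R1 30 livers, against 1.499, 3.18 and 2.51 in vehicle livers.

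**Figure D2:**
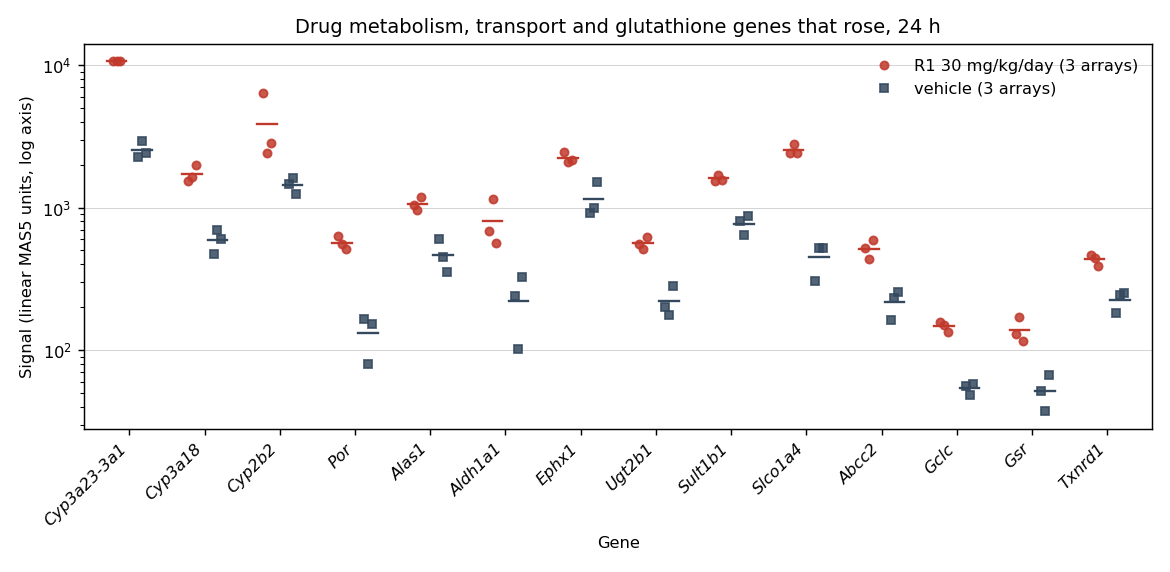
MAS5 signal (log axis) of 14 drug metabolism, transport and glutathione genes that rose, with 1 point per array and a bar at the group mean, R1 30 in red and vehicle in blue. The groups do not overlap for any of them, as for 107 of the 110 called probe sets. The first R1 30 array of Cyp2b2 (6408) stands above the other two.

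Of 14 genes of the NRF2 antioxidant response and glutathione supply, 3 rose, with a median of 0.63. Among all genes tested 1.14% rose, with a median of -0.03. Gclc, the catalytic subunit of the rate-limiting enzyme of glutathione synthesis, had 158, 150 and 134 in R1 30 livers, against 56.1, 48.5 and 57.8 in vehicle livers (1.40 ± 0.25, adjusted p = 2.78e-04). Gsr, which reduces oxidised glutathione, had 130, 171 and 116 in R1 30 livers, against 51.4, 37.2 and 66.5 in vehicle livers (1.40 ± 0.25, adjusted p = 1.51e-04). Both held with any array left out. Txnrd1, thioredoxin reductase, rose by 0.95 ± 0.25 (adjusted p = 0.0311), a call that ended without R1 30 array 1 or 2 or vehicle array 1 or 2 (adjusted p up to 0.228). Hmox1, heme oxygenase, did not pass, with 162, 59.6 and 59.9 in R1 30 livers, against 30.2, 38.1 and 56.2 in vehicle livers (1.00 ± 0.31, adjusted p = 0.102). Nqo1, a quinone reductase, did not pass either (0.73 ± 0.63, adjusted p = 0.773).

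A few genes of growth, protein turnover and stress rose. Mdm2, the ligase that degrades p53, had 115, 72.7 and 59.1 in R1 30 livers, against 18.9, 26.9 and 38.9 in vehicle livers (1.45 ± 0.30, adjusted p = 0.00159), and was the 1 of 6 p53 targets tested that rose. Of its 3 probe sets this 1 was called (the lowest was at 0.61), and with only the arrays of the groups compared its adjusted p was 0.0545. The p53 targets Cdkn1a (-0.41 ± 0.57, adjusted p = 0.882) and Gadd45a (0.53 ± 0.30, adjusted p = 0.567) did not pass. Of 20 cell cycle and replication genes 3 rose, with a median of 0.57, beside 1.14% and -0.03 over all genes tested. Ccnd1, cyclin D1, had 202, 140 and 144 in R1 30 livers, against 74.4, 56.0 and 77.6 in vehicle livers (1.19 ± 0.30, adjusted p = 0.0247). The replicative helicase subunits Mcm6 (1.90 ± 0.41, adjusted p = 0.00315) and Mcm7 (0.95 ± 0.26, adjusted p = 0.0462) were the other two. For Mcm6 the R1 30 arrays had 126, 68.7 and 58.6, against 22.0, 17.5 and 18.6 in vehicle livers. R1 30 array 1 was the highest for Mdm2, Ccnd1 and Mcm6. The cell cycle list's mean against the study 1 vehicle mean was 0.88, 0.57 and 0.15 in R1 30 arrays 1, 2 and 3. The 24 h vehicle arrays of study 4 ranged between 0.18 and 0.47 for this list, above R1 30 array 3. At 10 and 100 mg/kg/day the list had 0 and 1 of 20 genes that rose, with medians of 0.10 and 0.12. Over all genes 0.758% and 3.2% rose at these doses. Without R1 30 array 1 the adjusted p of Mcm6 was 0.0682. Ccnd1 also lost its call without that array or without vehicle array 1 or 2 (adjusted p up to 0.185), and Mcm7 without R1 30 array 2 or any 1 vehicle array (adjusted p up to 0.416). Of 5 probe sets of Ccnd1 2 were called (the lowest was at 0.52), and of 3 of Mcm6 1 was called (the lowest was at 1.25).

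Of 21 proteasome subunits 2 rose and 19 lay above 0, with a median of 0.49. Of all genes tested, 1.14% rose and 1735 of 3693 lay above 0, with a median of -0.03. Psmc4, an ATPase of the regulatory particle, had 305, 328 and 283 in R1 30 livers, against 150, 154 and 159 in vehicle livers (0.97 ± 0.19, adjusted p = 6.45e-04), a small rise with little spread. Psmc3, another of these ATPases, rose by 0.87 ± 0.23 (adjusted p = 0.0356), and its call held only without R1 30 array 2 among the 6 fits with 1 array left out (adjusted p up to 0.233). Of 11 heat shock genes 1 rose, the chaperone Hsp90ab1 (0.79 ± 0.22, adjusted p = 0.0476), and its call ended without any 1 array (adjusted p up to 0.242). Of its 4 probe sets this 1 was called, and the lowest was at 0.11. Outside the lists, Pelo, which rescues stalled ribosomes, had 94.8, 109 and 90.8 in R1 30 livers, against 34.0, 33.4 and 35.8 in vehicle livers (1.43 ± 0.30, adjusted p = 0.00225). The DNA repair nuclease Apex1 (1.23 ± 0.28), the phosphatase subunit Ppp1r15a (1.07 ± 0.30), the glycolytic enzyme Aldoa (0.97 ± 0.23) and the bile acid synthesis enzyme Hsd3b7 (0.79 ± 0.21) completed the rises. Of 2 probe sets of Ppp1r15a 1 was called, and the other was at 0.08. The 24 h vehicle livers of study 4 had means close to those of R1 30 for Hsd3b7 (395 in R1 30 livers and 391 in study 4 vehicle livers) and Ppp1r15a (22.9 and 20.6), where the study 1 vehicle livers had 230 and 9.46. Each of these 4 calls ended without R1 30 array 1 and without vehicle array 1, and all but that of Apex1 without others too (adjusted p up to 0.109 for Apex1, 0.241 for Ppp1r15a, 0.206 for Aldoa and 0.226 for Hsd3b7).

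**Figure D3:**
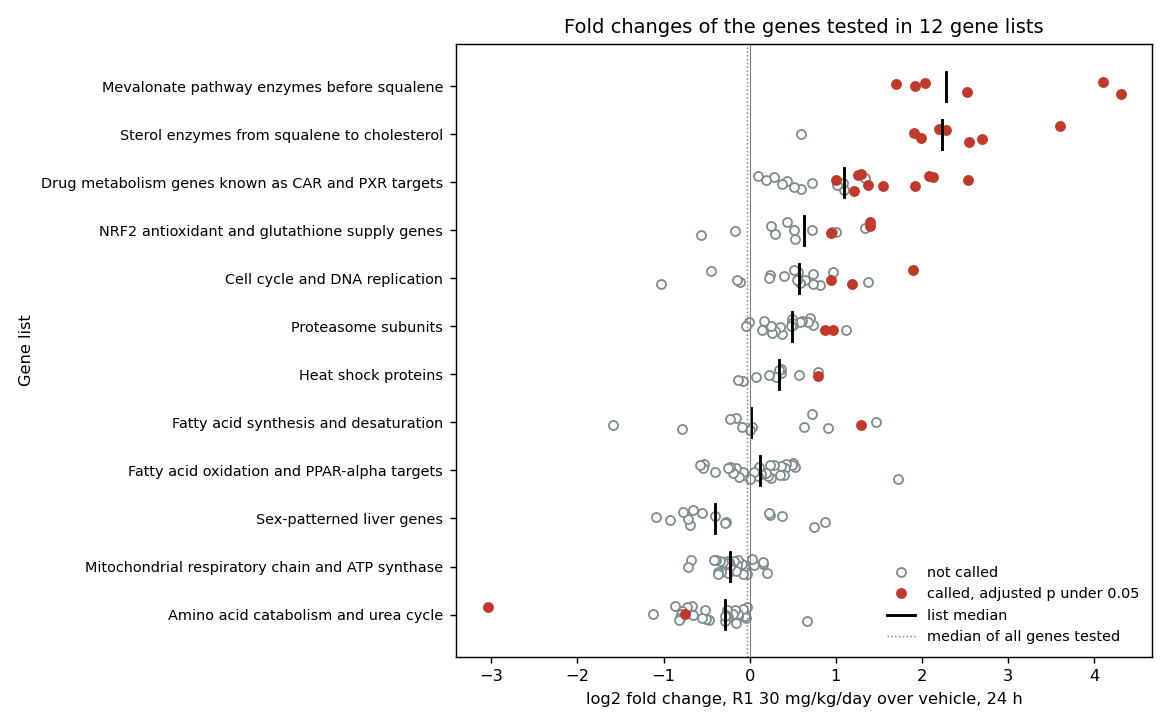
Log2 fold change, R1 30 over vehicle, of the genes tested in 12 gene lists, with 1 point per gene, filled where called, and a black bar at the list median. The 2 sterol lists have medians of 2.28 and 2.24 and the CAR and PXR list 1.09, while fatty acid oxidation (0.12) and fatty acid synthesis (0.01) lie near the median of all genes (-0.03).

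The 7 genes that fell belonged to several functions, and fewer cells of a type and less RNA per cell cannot be told apart in these tissue samples. Sds, serine dehydratase, which turns serine into pyruvate, had 8.92, 3.15 and 15.8 in R1 30 livers, against 121, 116 and 48.0 in vehicle livers (-3.04 ± 0.80, adjusted p = 0.0325). Tsc22d1, a leucine zipper regulator, had 127, 173 and 122 in R1 30 livers, against 1169, 449 and 549 in vehicle livers (-2.23 ± 0.50, adjusted p = 0.00535). Ass1, a urea cycle enzyme, had 2343, 2303 and 2539 in R1 30 livers, against 4709, 4005 and 3435 in vehicle livers (-0.75 ± 0.16, adjusted p = 0.00358). In each of the 3, every R1 30 array was below every vehicle array, as was so for 7.58% of all genes tested. Vehicle array 1 was the highest vehicle array for all 3, and without it the adjusted p was 0.122 for Tsc22d1 and 0.0814 for Ass1. Sds also lost its call without that array, vehicle array 2 or R1 30 array 1 or 2 (adjusted p up to 0.198). Of the 3 probe sets of Sds this 1 was called, and the smallest fall among them was -0.64.

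Mx1, an interferon-induced antiviral GTPase, had 3.85, 2.16 and 9.40 in R1 30 livers, against 24.4, 14.4 and 20.7 in vehicle livers (-1.58 ± 0.43, adjusted p = 0.0453). It was the 1 of 22 interferon and MHC genes that was called, where 1.33% of all genes were. Rpl19l4 had 115, 28.7 and 69.0 in R1 30 livers, against 217, 142 and 151 in vehicle livers (-1.40 ± 0.35, adjusted p = 0.0194). Kiaa0040 (-1.30 ± 0.36, adjusted p = 0.0440) and the nucleoside transporter Slc28a2 (-1.29 ± 0.33, adjusted p = 0.0258) were called although their groups overlapped. Of 2 probe sets of Kiaa0040 1 was called, and the other was at -0.445. Each of the 4 lost its call without vehicle array 1 and without at least 1 R1 30 array (adjusted p up to 0.279 for Mx1, 0.327 for Rpl19l4, 0.366 for Kiaa0040 and 0.316 for Slc28a2). Called on a probe set other than the brightest one were Adh1c, Agxt, Cth, Fn1, Lman1 and Uox among the falls and Mbl2, Nap1l1, Psmd1 and Tkt among the rises. The probe sets of Lman1, a cargo receptor of the secretory pathway, ranged between -2.08 and 0.87.

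**Figure D4:**
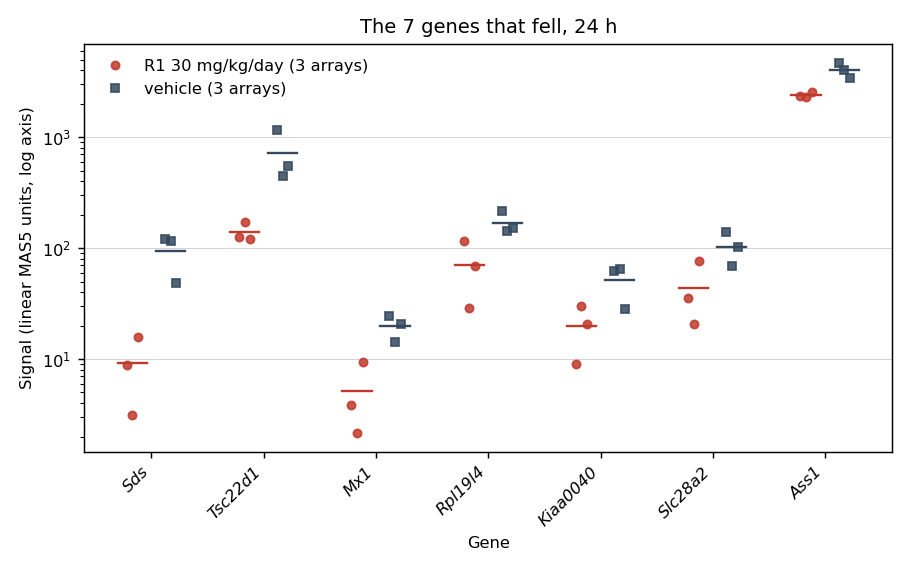
MAS5 signal (log axis) of the 7 genes that fell, with 1 point per array and a bar at the group mean, R1 30 in red and vehicle in blue. Sds, Tsc22d1, Mx1, Rpl19l4 and Ass1 do not overlap between groups, while Kiaa0040 and Slc28a2 do.

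The 24 h vehicle livers of study 4 give a second set of vehicle levels. All 42 genes that rose had a higher mean in R1 30 livers than in these, and 6 of the 7 that fell had a lower one. The genes were chosen by the same R1 30 arrays, so this is no independent test of the calls. No share over all genes is given beside these counts. Rpl19l4 was the exception, with a mean of 71.1 in R1 30 livers and 39.7 (20.4 to 55.8) in study 4 vehicle livers, beside 170 in study 1 vehicle livers. Mx1 averaged 5.14 in R1 30 livers and 7.82 (2.20 to 17.7) in study 4 vehicle livers, a range that holds R1 30 arrays too. For 7 of the 42 rises and 3 of the 7 falls, the study 4 vehicle range reached at least 1 R1 30 array. These rises were Acsl3, Alas1, Hsp90ab1, Apex1, Hsd3b7, Ppp1r15a and Sult2a6, and these falls Rpl19l4, Mx1 and Slc28a2. Sult2a6 averaged 1320.5 (523 to 2277) in study 4 vehicle livers, beside 671.5 in study 1 vehicle livers and 2484.7 in R1 30 livers. Of the 49 calls, 19 ended under at least 1 processing setting other than leaving out an array. Among the falls these were Mx1 under 6 settings (adjusted p up to 0.106), Kiaa0040 under 6 (up to 0.256), Sds under 4 (up to 0.343), and Rpl19l4 (up to 0.18) and Slc28a2 (up to 0.246) under 3 each. Among the rises they were Ppp1r15a under 7 (up to 0.632), Mcm7 under 5 (up to 0.247), Hsp90ab1 (up to 0.346), Hsd3b7, Cyp2b2 and Sult1b1 under 4 each, Psmc3 and Ugt2b1 under 3 each, Aldoa (up to 0.128) and Ephx1 under 2 each, and Mdm2, Acsl3, Txnrd1 and Sult2a2 under 1 each (up to 0.0885 where none is given). The calls of the sterol enzymes were not among them.

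Amino acid catabolism and the urea cycle had 2 of 31 genes called, Sds and Ass1, and 30 of 31 lay below 0, with a median of -0.29. Of the 3693 genes tested, 0.19% fell and 1958 lay below 0. The list's mean against the vehicle mean was -0.51, -0.49 and -0.46 in R1 30 arrays, and 0.02, 0.06 and -0.08 in vehicle arrays. The respiratory chain and ATP synthase had 0 of 29 called and 24 below 0, with a median of -0.23. Complement and coagulation had 0 of 19 called and 17 below 0, with a median of -0.34. None was called among 30 fatty acid oxidation genes (median 0.12), 12 bile acid genes (0.02), 13 glucose genes (-0.30), 25 acute phase genes (-0.23), 15 unfolded protein response genes (-0.20), 15 sex-patterned genes (-0.41), 8 clock genes (0.10), 15 immediate early genes (0.26) or 39 ribosomal proteins (-0.10). Cyp4a1, a fatty acid hydroxylase induced through PPAR-alpha, gave -0.55 ± 0.47 (adjusted p = 0.771). Cyp7a1, the rate-limiting enzyme of bile acid synthesis, had 2.40, 39.7 and 20.1 in R1 30 livers, against 60.2, 4.18 and 218 in vehicle livers, a wide spread in both groups (-1.42 ± 0.77, adjusted p = 0.551). The fasting-responsive genes Pck1 (-0.10 ± 0.50) and Igfbp1 (-0.85 ± 0.63) and the drug exporter Abcb1b (0.51 ± 0.59) did not pass, and albumin, Alb, gave 0.00 ± 0.11.

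Doses of study 1 share the vehicle arrays, so their fold changes over vehicle are given side by side, and doses were compared directly. The mevalonate list had 5, 6 and 6 of 6 genes that rose at 10, 30 and 100 mg/kg/day, with medians of 1.14, 2.28 and 2.77. The later sterol enzymes had 5, 7 and 7 of 8, with medians of 1.32, 2.24 and 2.42. The CAR and PXR list had 5, 10 and 11 of 22, with medians of 0.53, 1.09 and 1.25. Over all genes tested, 0.758%, 1.14% and 3.2% rose at these doses.

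In the direct test, 24 probe sets differed between 30 and 10 mg/kg/day (0.377%), 21 of them higher at 30 (0.33%) and 3 lower (0.0472%). Of the 6 mevalonate enzymes tested 4, and of the 8 later sterol enzymes tested 3, were higher at 30 than at 10 mg/kg/day, where 0.325% of all genes were. They were Sqle (2.01 ± 0.34, adjusted p = 0.00131), Mvd (1.87 ± 0.38, adjusted p = 0.00703), Idi1 (1.65 ± 0.35, adjusted p = 0.00923), Acat2 (1.55 ± 0.37, adjusted p = 0.0414), Msmo1 (1.33 ± 0.23, adjusted p = 0.00134), Lss (1.06 ± 0.22, adjusted p = 0.00923) and Fdft1 (0.97 ± 0.22, adjusted p = 0.0200). Sqle averaged 1107 ± 212 in R1 30 livers and 281 ± 91.2 in R1 10 livers (SD, n = 3 and 4). Aldh1a1 averaged 799 ± 311 in R1 30 livers and 243 ± 133 in R1 10 livers, beside 222 ± 113 in vehicle livers, and the difference between the doses was 1.77 ± 0.34 (adjusted p = 0.00396). Ccnd1 (1.40 ± 0.28, adjusted p = 0.00703) and Mdm2 (1.14 ± 0.28, adjusted p = 0.0469) were also higher at 30 mg/kg/day, with Tle1, a corepressor (1.29 ± 0.25), and Rabep1, an endosomal effector (1.01 ± 0.21). Over vehicle, Tle1 stood at -0.84, 0.45 and -0.31 at 10, 30 and 100 mg/kg/day, and Rabep1 at -0.41, 0.60 and 0.68. Neither was called between R1 30 and vehicle.

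Srebf1 ran the other way, with 51.4 ± 10.9 in R1 30 livers and 183 ± 24.2 in R1 10 livers (-1.79 ± 0.37, adjusted p = 0.00875). Vehicle livers had 110 ± 23.0 and R1 100 livers 24.4 ± 2.81, so its mean was above that of vehicle at 10 and below it at 30 and 100 mg/kg/day. The number of probe sets called between 30 and 10 mg/kg/day was 8 without R1 30 array 1, and without that array the adjusted p was 0.134 for Srebf1 and Ccnd1 and 0.185 for Mvd. Sqle and Msmo1 kept their calls with each of the 7 arrays left out. Aldh1a1 lost its call without R1 30 array 2 (adjusted p = 0.078) and Tle1 without R1 30 array 3 (0.0842). Lss lost it without R1 30 array 1 or R1 10 array 4 (adjusted p up to 0.13), Rabep1 without R1 30 array 1 or R1 10 array 1 (up to 0.269), and Fdft1 without R1 30 array 1 or 2 or R1 10 array 3 or 4 (up to 0.185). Idi1 lost its call without R1 30 array 1 or 2 or R1 10 array 3 or 4 (adjusted p up to 0.0803), Acat2 without any 1 array (up to 0.149) and Mdm2 without any but R1 30 array 3 (up to 0.4). Among the settings, Idi1 lost its call under 2 (adjusted p up to 0.0789) and Acat2 under 5 (up to 0.0956).

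Between 30 and 100 mg/kg/day 4 probe sets differed (0.0629%), all lower at 30, and the 3 genes named among them belong to neither the sterol nor the drug metabolism lists. Slc3a2, the heavy chain of amino acid exchangers, averaged 171 ± 42.4 in R1 30 livers and 441 ± 137 in R1 100 livers (SD, n = 3 each) (-1.34 ± 0.26, adjusted p = 0.0163). Eci1, an isomerase of fatty acid oxidation, averaged 499 ± 115 in R1 30 livers and 1090 ± 277 in R1 100 livers (-1.12 ± 0.22, adjusted p = 0.0175). Psma4, a proteasome subunit, averaged 156 ± 36.0 in R1 30 livers and 300.4 ± 17.3 in R1 100 livers (-0.96 ± 0.18, adjusted p = 0.00862). The proteasome list had 2 of 21 genes that rose over vehicle at 30 and 13 at 100 mg/kg/day, with medians of 0.49 and 0.86. The share of all genes tested that rose was 1.14% at 30 and 3.2% at 100 mg/kg/day. Slc3a2 and Psma4 lost their calls without R1 30 array 2 or R1 100 array 1 or 2 (adjusted p up to 0.228), and Eci1 without those or R1 30 array 1 (up to 0.389). Without R1 100 array 1 limma called 0 probe sets (401 at an unadjusted p under 0.05), and it also called 0 when only the arrays of study 1 were fitted (567 unadjusted). The count was 1 without R1 30 array 2 or R1 100 array 2 and 7 without R1 30 array 1 or 3.

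The intervals of the sterol enzymes bound their difference between 30 and 100 mg/kg/day. For Idi1 the 95% interval was -1.19 to 0.31, for Sqle -1.07 to 0.40, for Msmo1 -0.65 to 0.35, for Cyp51 -0.55 to 0.42 and for Lss -0.80 to 0.16. The widest on the low side was that of Mvd, at -1.63 to -0.00 (adjusted p = 0.604).

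**Figure D5:**
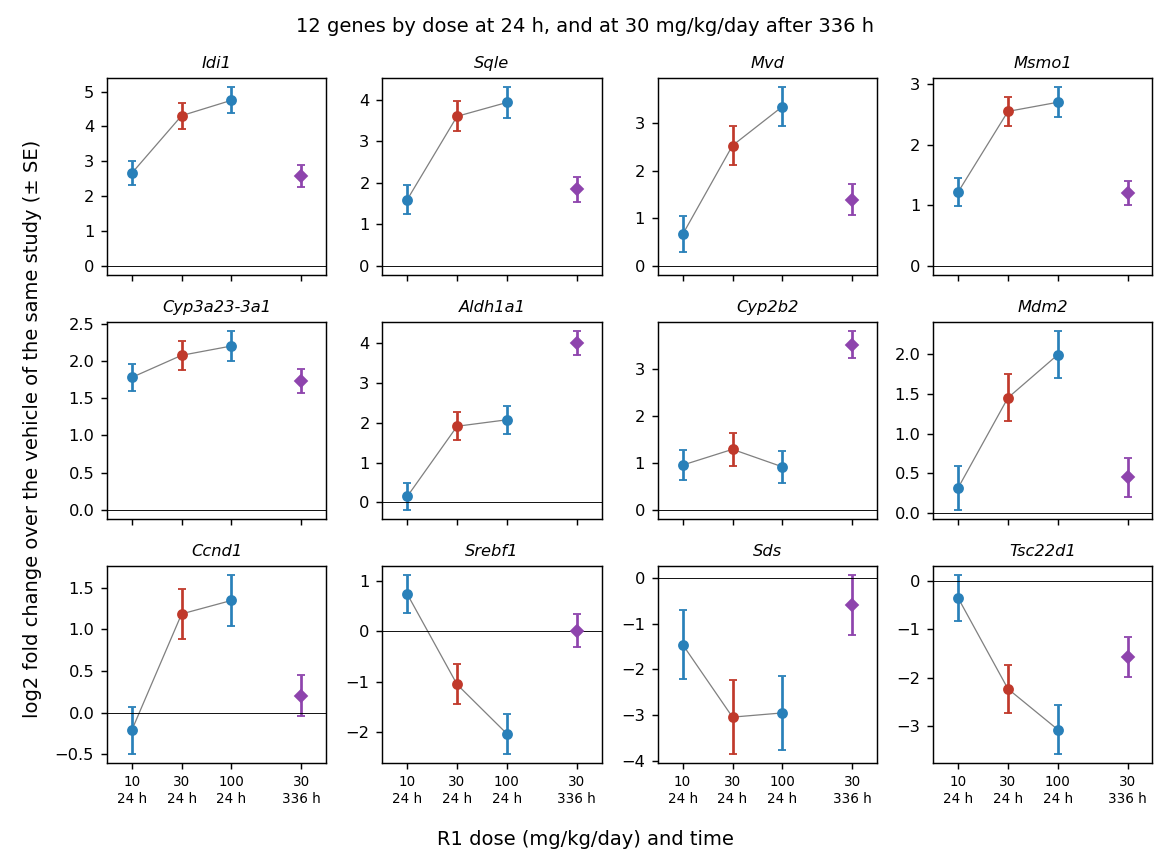
Log2 fold change over the vehicle of the same study (± SE) of 12 genes at 10, 30 and 100 mg/kg/day of R1 for 24 h and at 30 mg/kg/day for 336 h. Idi1, Sqle, Mvd and Msmo1 are lower at 10 than at 30 mg/kg/day, Mvd is 2.53 at 30 and 3.34 at 100 mg/kg/day, and Aldh1a1 (4.01) and Cyp2b2 (3.52) are highest after 336 h.

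The same dose was given for 336 h in study 3, with its own vehicle, and time and study cannot be told apart in this comparison. Of the 94 probe sets higher at 24 h, 74 were also higher after 336 h, which is 78.7% of the 24 h list and 22.1% of the 335 higher after 336 h (5.27% of all tested), and 1 was lower. Of the 16 lower at 24 h, 9 were also lower after 336 h, 56.2% of these and 2.36% of the 382 lower after 336 h (6.01%). The test of the difference between the 2 effects called 61 probe sets (0.959%), 29 with the higher effect at 24 h (0.456%) and 32 with the lower (0.503%). The mevalonate list had 6 of 6 genes that rose at 24 h and 6 at 336 h, with medians of 2.28 and 1.48, and the later sterol enzymes 7 and 6 of 8, with medians of 2.24 and 1.28, where 1.14% and 4.98% of all genes rose. Of these enzymes Msmo1 passed the test of the difference, where 0.433% of all genes had the higher effect at 24 h. It averaged 2909 ± 361 over 498 ± 93.5 of vehicle at 24 h and 1215 ± 279 over 522 ± 92.3 at 336 h (1.35 ± 0.32 between effects, adjusted p = 0.0200). Its call ended without vehicle array 1 or 2 or R1 30 array 1 or 2 of study 1, or R1 30 array 4 of study 3 (adjusted p up to 0.103). For Idi1 the difference was 1.73 with a 95% interval of 0.76 to 2.70 (adjusted p = 0.0710), and for Sqle 1.76 with an interval of 0.81 to 2.71 (adjusted p = 0.0538).

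Several genes of conjugation and glutathione handling had a higher effect at 336 h. Ggt1, gamma-glutamyltransferase, averaged 2.42 ± 0.42 in R1 30 livers and 3.08 ± 0.90 in vehicle livers at 24 h (SD, n = 3 each), and 89.5 ± 24.2 in R1 30 livers and 1.99 ± 1.18 in vehicle livers at 336 h (n = 4 and 5), a difference between effects of -4.40 ± 0.39 (adjusted p = 2.20e-10). Gstp1, the pi class glutathione transferase, averaged 84.5 ± 23.7 in R1 30 livers and 66.4 ± 1.70 in vehicle livers at 24 h, and 1708 ± 754 in R1 30 livers and 121 ± 11.3 in vehicle livers at 336 h (-3.41 ± 0.37, adjusted p = 1.53e-08). At 24 h neither was called (-0.16 ± 0.30 for Ggt1 and 0.30 ± 0.28 for Gstp1). Gpx2, a glutathione peroxidase, followed at -3.22 ± 0.62 (adjusted p = 0.00240), Defb1, a defensin, at -2.56 ± 0.66 (adjusted p = 0.0442) and Gsta3, an alpha class transferase, at -2.53 ± 0.60 (adjusted p = 0.0193). Aldh1a1 averaged 2903 ± 242 in R1 30 livers at 336 h, over 197 ± 112 in vehicle livers (-2.10 ± 0.46, adjusted p = 0.0122), a call that ended without vehicle array 1 or 3 or R1 30 array 3 of study 1 (adjusted p up to 0.0768).

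For Cyp2b2 the vehicle means of the 2 studies lay further apart than the means of the treated livers. It averaged 3878 ± 2202 in R1 30 livers and 1445 ± 190 in vehicle livers at 24 h, and 2941 ± 398 in R1 30 livers and 258 ± 68.6 in vehicle livers at 336 h (-2.23 ± 0.45, adjusted p = 0.00466). In the 24 h vehicle livers of study 4 Cyp2b2 averaged 475 (288 to 699), below the 1445 of study 1 at the same time. A positive difference, a higher effect at 24 h than at 336 h, was found for Socs2, a suppressor of growth hormone signalling (2.94 ± 0.73, adjusted p = 0.0347), Apoa4, an apolipoprotein (2.83 ± 0.60, adjusted p = 0.00828), Oat, ornithine aminotransferase (2.70 ± 0.49, adjusted p = 0.00114), Hsd17b6, a steroid dehydrogenase (1.93 ± 0.36, adjusted p = 0.00156), and Lgals1, galectin 1 (1.90 ± 0.41, adjusted p = 0.00877). None of these 5 was called at 24 h, and their effects at 24 h and 336 h were 1.299 and -1.64 for Socs2, -0.52 and -3.35 for Apoa4, 0.67 and -2.03 for Oat, -0.78 and -2.70 for Hsd17b6 and 0.68 and -1.22 for Lgals1. Each had its larger change, downward, at 336 h. Vehicle levels were apart for Oat, with 326 ± 33.1 in vehicle livers at 24 h and 831 ± 293 at 336 h, and for Socs2 (7.995 ± 3.52 and 32.9 ± 24.9). They lay closer for Apoa4 (687 and 545.5), Hsd17b6 (1402 and 1722) and Lgals1 (49.3 and 42.8). The calls of Socs2, Defb1 and Gsta3 ended without 1 of several arrays (adjusted p up to 0.182, 0.150 and 0.125), and that of Apoa4 without R1 30 array 1 at 24 h (adjusted p = 0.0510). Among the settings, Socs2 lost its call under 5 (up to 0.0905), Defb1 under 4 (up to 0.0886) and Lgals1 under 1 (0.081). The count of 61 was 30 without vehicle array 1, 35 without vehicle array 2 and 34 without R1 30 array 1, all of study 1.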

How the data were processed

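Liver RNA of 44 arrays was measured on Affymetrix rat expression arrays. The deposited values are linear array intensities made with MAS5, per the submitters' processing notes. After sorting, all 44 arrays hold identical values, a quantile normalization that the labels do not state; it gives every array the same median (14.5), so shared shifts of many genes cannot be seen, and equal ranks give equal signals. Precision depends on the number of arrays.

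Of 8799 probe sets, 59 controls were left out. The array's gene table gave 1 symbol to 7006 probe sets, several to 308 and none to 1426; only the first kind was named, and 21 symbols were kept as the table gives them because RefSeq did not hold them. The brightest probe set over all arrays stood for a gene.

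Before log2, the percentile 20 of the signals (2.9) was added, and probe sets were tested where the highest of 11 group means reached percentile 40 (9.17). limma 3.58.1 in R 4.3.3 was fitted with 1 mean per group over all 44 arrays (33 residual degrees of freedom) and a mean-variance trend, with Benjamini-Hochberg adjustment over the 6361 probe sets tested. Comparisons were R1 30 over vehicle, R1 30 over R1 10 and over R1 100, and the difference between the effects at 24 h and 336 h. The procedure was tested on simulated data. Alternatives were the offset, the dim filter, centring, fewer arrays, no trend, a robust prior, array weights, a replicate block, the mean over a gene's probe sets and each array left out.

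Genes were named by a rule: the 15 largest rises and falls among called genes without overlap, up to 4 called members of each gene list, well-known liver genes, other called genes by fold change, and in the other comparisons the 5 largest called differences each way. Nsdhl was named after its values were seen. The members, lists and motifs were chosen with earlier results of these data known.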

Additional observations from a re-analysis of the deposited data

Results flagged for a closer look

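Among the genes named for R1 30 against vehicle at 24 h, 3 were also among the 35 genes whose effect over vehicle differed between 24 h and 336 h in limma's test of the difference itself, with time and study not separable. The effect of Msmo1 was larger at 24 h by 1.35 on the log2 scale, that of Aldh1a1 smaller (-2.10) and that of Cyp2b2 smaller (-2.23). Of 40 groups of 4 or 5 arrays examined, 1 held an array far from the others, which is fewer than the 1 in 20 that chance gives. The genes examined were Idi1, Acat2, Sqle, Lss, Msmo1, Sds, Tsc22d1, Mx1, Rpl19l4 and Ass1, and not the other named genes. In R1 30 livers at 336 h the first array of Mx1 had a signal of 19.8, where the others had 23.2, 23.1 and 23.5.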

How the results depend on the processing

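The 110 probe sets called between R1 30 and vehicle were 73 to 110 with each array left out, with 73 without vehicle array 1 (70 higher, 3 lower), and 88 to 129 under the other settings. The 24 called between 30 and 10 mg/kg/day were 8 (without R1 30 array 1) to 25 with each array left out and 38 when only the study's arrays were fitted. The 4 called between 30 and 100 mg/kg/day were 0 to 7 with each array left out. In limma fits with only the study's arrays and with only the arrays of the groups compared they were 0, with 567 and 468 at an unadjusted p under 0.05, where the fit over all arrays gave 520. The 61 called between 24 h and 336 h were 30 (without vehicle array 1) to 61 with each array left out. Counted over genes, 49, 13, 3 and 35 were called in these comparisons with the brightest probe set, and 48, 13, 2 and 42 with the mean over a gene's probe sets. The labels do not say whether same-numbered arrays are paired. Deviations from the group means correlated at 0.045, -0.024 and 0.043 between same-numbered arrays and between -0.096 and 0.060 for other pairs. With so few arrays in each group this cannot decide whether they are paired. With a replicate block 109, 18, 5 and 55 probe sets were called. Of the 49 genes called between R1 30 and vehicle, 28 were still called without vehicle array 1 and 41 without R1 30 array 3. Signs turned for 3 uncalled genes: Cyp1a1 (-0.111 to 0.172 with each array left out), Alb (-0.014 to 0.014 with each array left out, 0.000 with an offset of 1 and with only the groups compared, 0.004 with array weights, 0.072 over its probe sets) and Pck1 (-0.417 to 0.182 with each array left out, 0.089 with array weights). Fits with an array left out use fewer arrays, and the cause of the other moves was not tested. Probe sets near background and those at shared ranks limit what can be seen.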

Other observations

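Of the 110 called probe sets, 25 had no single gene symbol, 22 of them higher in R1 30 livers and 3 lower, and these were not named. R1 30 array 1 was the highest of the 3 for 45 of the 94 rises, array 2 for 33 and array 3 for 14. Array 3 was the lowest for 41, array 2 for 35 and array 1 for 17. The remaining rises had tied arrays.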
